A study of Homo sapiens with 4 samples.

Results

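Microtubules are hollow filaments built from dimers of 1 alpha and 1 beta tubulin, and human cells make each subunit from several genes, the isotypes, which differ mainly in the acidic tail at the end of the protein. The 10 genes described here encode the main alpha tubulins (TUBA1A, TUBA1B, TUBA1C, TUBA4A) and beta tubulins (TUBB, TUBB2A, TUBB2B, TUBB3, TUBB4B, TUBB6). They were taken by NCBI Gene ID from 18882 gene IDs listed in the deposited files, and all 10 had reads in every library. They were selected on their expected counts and FPKM in the NRP-1 libraries against the controls, so those values are given as a description without a test.

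BT-474 is an established human breast cancer cell line of luminal type, and the study asked how its RNA changes when the co-receptor neuropilin-1 (NRP-1) is overexpressed. The control group was 2 libraries of wild-type BT-474 cells, numbered 1 and 2. The NRP-1 group was 2 libraries, numbered 2 and 3, of BT-474 cells stably transfected with the pPTuner IRES2 plasmid expressing NRP-1, selected in Geneticin and isolated as positive clones. All cells grew in RPMI-1640 with 10% fetal bovine serum, polyadenylated RNA was sequenced, and no drug treatment is given for these 4 libraries. Since the labels call the controls wild-type, the plasmid and the selection cannot be told apart from NRP-1 itself. The labels do not say whether the 2 libraries of a group came from separate cultures or clones, so the spread between them may be technical.

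Expected counts, the reads that the authors' software assigned to each gene, summed to 8243595 and 8308030 in the controls and to 8395510 and 8448926 in the NRP-1 libraries. The overexpressed gene, NRP1, had 7 and 8 reads in the controls against 103 and 62 in the NRP-1 libraries (log2 fold change 3.38, SE 0.42, Benjamini-Hochberg adjusted p = 0.0440 in the quasi-likelihood test of edgeR). All 9 luminal epithelial markers had over 10 reads in every library. Counts differed more between the 2 NRP-1 libraries than between the 2 controls, with a mean chi-square per gene of 23.1 against 3.42, where sampling noise alone gives 1. Among the 12 markers of dividing cells, such as MKI67 and TOP2A, the summed level was 709 and 866 CPM (reads per 1000000 reads) in the controls, 982 in NRP-1 replicate 2 and 2283 in NRP-1 replicate 3. The list was mixed in NRP-1 replicate 2. There PCNA had 901 reads against 1131 and 1311 in the controls, and MCM2 had 613 against 841 and 966. CDK1 and AURKB were not above both controls in that library either. None of the 12 passed the test, while all 12 were higher in NRP-1 replicate 3 than in replicate 2. In bulk RNA, more dividing cells and more of these transcripts per cell cannot be told apart.

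Tubulin genes have close copies, and both ends of the coding sequence carry known functions. In tubulin mRNA autoregulation, an excess of free tubulin leads to decay of the mRNAs being translated, through the factor TTC5, which reads the first 4 residues as they leave the ribosome. The starts are shown because they hold that signal, with the first 4 codons in capitals. They are coding bases 1 to 30, 5′ to 3′, from GENCODE 29 transcripts on GRCh38, matched through the RefSeq transcript identifiers in the deposited files.
TUBA1A: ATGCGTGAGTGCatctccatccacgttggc
TUBA4A: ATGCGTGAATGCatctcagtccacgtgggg
TUBB: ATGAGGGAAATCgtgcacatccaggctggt
TUBB2A: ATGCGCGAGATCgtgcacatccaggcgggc
TUBB2B: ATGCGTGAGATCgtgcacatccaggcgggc
TUBB3: ATGAGGGAGATCgtgcacatccaggccggc

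TUBA1B and TUBA1C had the same 30 bases as TUBA1A. TUBB4B shared its first 12 bases with TUBB, and TUBB6 shared its first 12 with TUBB3.

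The last 60 coding bases of TUBA4A and of the beta genes are shown because they encode the tails in which isotypes differ, with the last codon before the stop in capitals. Most alpha tubulins end in an encoded tyrosine, which enzymes remove and add back on microtubules.
TUBA4A (chr2:219250352-219250411, minus strand): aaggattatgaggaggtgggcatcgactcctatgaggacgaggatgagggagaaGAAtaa
TUBB (chr6:30724338-30724397, plus strand): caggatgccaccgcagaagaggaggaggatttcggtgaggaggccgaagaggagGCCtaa
TUBB2A (chr6:3153863-3153922, minus strand): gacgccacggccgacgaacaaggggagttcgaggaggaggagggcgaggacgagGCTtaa
TUBB2B (chr6:3224751-3224810, minus strand): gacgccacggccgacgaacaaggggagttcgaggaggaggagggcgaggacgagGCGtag
TUBB3 (chr16:89935745-89935804, plus strand): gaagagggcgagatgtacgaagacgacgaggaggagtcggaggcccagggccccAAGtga
TUBB4B (chr9:137243497-137243556, plus strand): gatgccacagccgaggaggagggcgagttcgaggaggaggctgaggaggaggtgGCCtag
TUBB6 (chr18:12326071-12326130, plus strand): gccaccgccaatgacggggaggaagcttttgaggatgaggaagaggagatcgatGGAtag

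The TUBA4A transcript ends in a glutamate codon (GAA), so its protein is made without the terminal tyrosine. The tails of TUBB2A and TUBB2B differed at 2 of 60 bases.

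Over the whole coding sequence, pairs of alpha genes were 85.0% to 97.3% identical and pairs of beta genes 81.3% to 98.1%, while an alpha and a beta gene shared 54.4% to 56.4%. The closest pairs were TUBB2A with TUBB2B (98.1%), TUBA1B with TUBA1C (97.3%) and TUBA1A with TUBA1B (97.2%). Of the 50-base windows of the TUBA1A transcript, 40.9% also occurred in another of the 10 genes, and the share was 56.6% for TUBA1B and 60.3% for TUBB2A. For these genes the authors' counting had to split reads between copies, and single-gene values are therefore uncertain. The share was 1.0% for TUBB6 and 0.0% for TUBA4A and TUBB, although 18.2% of the TUBB windows also occurred in genes outside the 10, chiefly TUBB pseudogenes. TUBB3 shared 8.7% of its windows with the other members but 89.4% with any gene. This is because GENCODE lists a longer gene, AC092143.1, that overlaps both MC1R and TUBB3. The deposited files list NCBI Gene IDs and RefSeq transcripts. Whether the authors' reference also held the longer gene is not given in the sources used here.

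TUBA1B and TUBB, the main tubulins of dividing cells, led in these breast cancer cells. On the FPKM scale (fragments per kilobase of transcript and 1000000 mapped reads), which corrects for length and sequencing depth and so allows comparison between genes, TUBA1B was 525 ± 48.2 in control cells (SD, n = 2, as for all values in this form). TUBB followed at 447 ± 25.2, TUBA1C at 178 ± 11.0, TUBB4B at 106 ± 1.90 and TUBB3 at 82.3 ± 6.65. The rest were lower, with TUBB2A at 20.1 ± 3.17, TUBA4A at 9.30 ± 2.84, TUBA1A at 3.53 ± 0.0283, TUBB6 at 1.07 ± 0.0778 and TUBB2B at 0.640 ± 0.0424. No 2 neighbours in this order had overlapping control values.

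The order differed at 2 places in NRP-1 cells. TUBB3, at 189 ± 0.417 FPKM, stood above TUBB4B at 138 ± 19.3, and TUBA1A, at 17.2 ± 4.07, stood above TUBA4A at 5.26 ± 0.0283. TUBA1B (952 ± 418) and TUBB (655 ± 146) remained the highest, but their ranges overlapped.

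**Figure D1:**
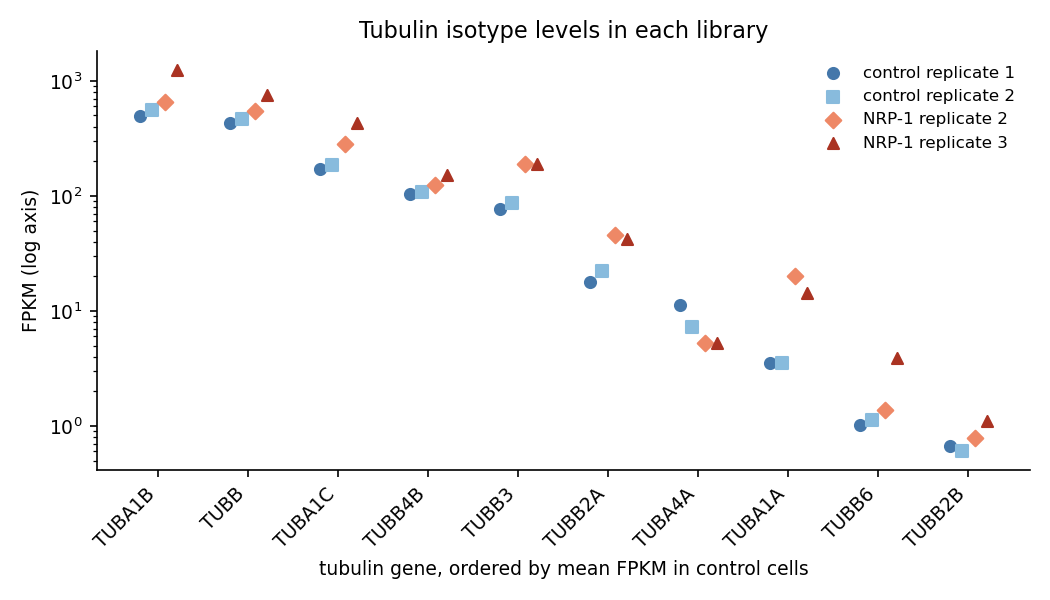
FPKM on a log axis of each tubulin gene (x axis, ordered by the control mean) in each of the 4 libraries, 1 point a library. Values run from 0.61 for TUBB2B in a control library to 1247.52 for TUBA1B in NRP-1 replicate 3, and TUBA4A is the only gene with both NRP-1 points below both control points.

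In the NRP-1 libraries 9 of the 10 genes lay above both controls in CPM and 1, TUBA4A, lay below both, where 27.9% and 28.3% of all 14298 genes tested did so, and 56.2% did one or the other. Across the 10 genes the median fitted log2 fold change was 0.90, and across all genes tested it was 0.02. TUBA1A, TUBB2A and TUBB3, all higher, had an adjusted p under 0.05 by edgeR's quasi-likelihood test, where 1.09% of all genes did in either direction, 0.413% higher and 0.678% lower. Since the genes were chosen with this contrast known, nothing is read from these counts or from the median. Leaving out either control library left no member called, while leaving out NRP-1 replicate 2 or 3 left 9 or 7.

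TUBA1A, an alpha tubulin best known from developing neurons, had the largest difference. It had 61.8 and 57.9 reads in the controls and 325 and 233 reads in NRP-1 replicates 2 and 3. Its log2 fold change was 2.16 ± 0.24 (SE of the edgeR fit, as for all fold changes below), or 4.46-fold, and 0.308% of the genes tested had a larger one. Both NRP-1 values were far above both controls, and replicate 2 was the higher. The study itself listed TUBA1A among its changed genes on these same libraries, so the value is no independent evidence.

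The count of TUBA1A was a small part of what its copies held. It made up 0.658% and 0.542% of the reads of TUBA1A, TUBA1B and TUBA1C together in the controls, and 2.36% and 0.951% in the NRP-1 libraries. The summed reads of the 3 genes were 9399 and 10666 in the controls against 13754 and 24496, a log2 fold change of 0.87 ± 0.28 (0.40 and 1.23 in NRP-1 replicates 2 and 3 over the control mean CPM). In this sum TUBA1A is outweighed by its copies, so the sum shows their difference rather than its own. The deposited transcript length of TUBA1A, which sets its FPKM, also varied between libraries, from 1935 bases in NRP-1 replicate 3 to 2134 bases in control replicate 1. GENCODE places the start of TUBA1A within the TUBA1C gene on the opposite strand, and whether counting used the strand is not given in the sources used here.

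TUBA1B, the most abundant alpha tubulin, had 7138 and 8189 reads in the controls and 9707 and 18581 in the NRP-1 libraries (log2 fold change 0.83 ± 0.30). Relative to the control mean it was 0.28 higher on the log2 scale in NRP-1 replicate 2 and 1.22 higher in replicate 3. TUBA1C, another alpha tubulin of dividing cells, had 2199 and 2419 reads against 3722 and 5682 (0.97 ± 0.21), or 0.63 and 1.24 above the control mean. For both genes the groups did not overlap, and NRP-1 replicate 3 was the higher library. The fitted value for TUBA1B was 0.28 without NRP-1 replicate 3 and 1.21 without replicate 2, and for TUBA1C it was 0.63 and 1.23.

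TUBA4A, the alpha tubulin made without its terminal tyrosine, was the only member lower in NRP-1 cells. It had 140 and 91 reads in the controls against 66 and 67 in NRP-1 cells (log2 fold change -0.86 ± 0.28). The 2 controls differed far more than the 2 NRP-1 libraries did. Without control replicate 1, the higher one, the value was -0.50, and without control replicate 2 it was -1.14.

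TUBB, the main beta tubulin, had 8904 and 9715 reads in the controls and 11639 and 16092 in the NRP-1 libraries (log2 fold change 0.52 ± 0.18). TUBB4B, a beta tubulin found in most tissues and in cilia, had 1366 and 1411 against 1649 and 2025 (0.34 ± 0.14). For TUBB and TUBB4B too NRP-1 replicate 3 was the higher library, and the fitted fold changes were the smallest among the members with over 100 reads in every library. The value for TUBB was 0.27 without NRP-1 replicate 3 and 0.72 without replicate 2, and that for TUBB4B was 0.19 without replicate 3.

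TUBB3, the class III beta tubulin, is the neuronal isotype that many carcinomas also make and that is known in connection with response to taxanes. It had 1145 and 1293 reads in the controls against 2837 and 2847 in NRP-1 cells (log2 fold change 1.16 ± 0.12). The 2 NRP-1 values were almost the same, and this was the smallest standard error among the 10 genes. MC1R, whose locus overlaps the longer gene shared with TUBB3, had 337 and 323 reads in the controls and 279 and 284 in the NRP-1 libraries. Of 10 neuronal markers, only DCX had over 10 reads in every library, and ELAVL3, NEFL and NEFM had none in any. SYP had 12 and 10 reads in the controls against 36 and 14 in NRP-1 replicates 2 and 3. The list summed to 8.13 and 6.33 CPM in the controls, 11.1 in NRP-1 replicate 2 and 7.16 in replicate 3.

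TUBB2A, a beta tubulin abundant in brain, had 238 and 299 reads in the controls and 623 and 569 in the NRP-1 libraries (log2 fold change 1.09 ± 0.16). Its near copy TUBB2B had 11.2 and 10.3 reads against 13.4 and 18.7 (0.54 ± 0.45). At such counts the difference for TUBB2B was not detectable: the exact 95% Poisson interval of the lowest library, 4.80 to 18.4 reads, overlapped that of the highest, 11.4 to 29.7, and these intervals cover counting error only. Summed, the pair had 249 and 309 reads against 637 and 588, a log2 fold change of 1.07 ± 0.16, so the sum differed little from TUBB2A alone.

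TUBB6, a beta tubulin of muscle and connective tissue, had 15.3 and 17.1 reads in the controls and 21.3 in NRP-1 replicate 2. It had 60.3 in NRP-1 replicate 3, whose 95% interval of 45.8 to 77.2 lay above those of the other 3 libraries. The log2 fold change of 1.27 ± 0.56 therefore rested on that library and was 0.33 without it. Of 8 fibroblast markers, DCN, PDGFRA, PDGFRB and FAP had no reads in any library, COL1A2 and LUM had at most 1, and COL3A1 had 6 in NRP-1 replicate 3 alone. The list summed to 214 and 212 CPM in the controls against 178 in NRP-1 replicate 2 and 160 in replicate 3, nearly all of it COL1A1 (1357 to 1740 reads), and its part in the TUBB6 value was not tested.

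**Figure D2:**
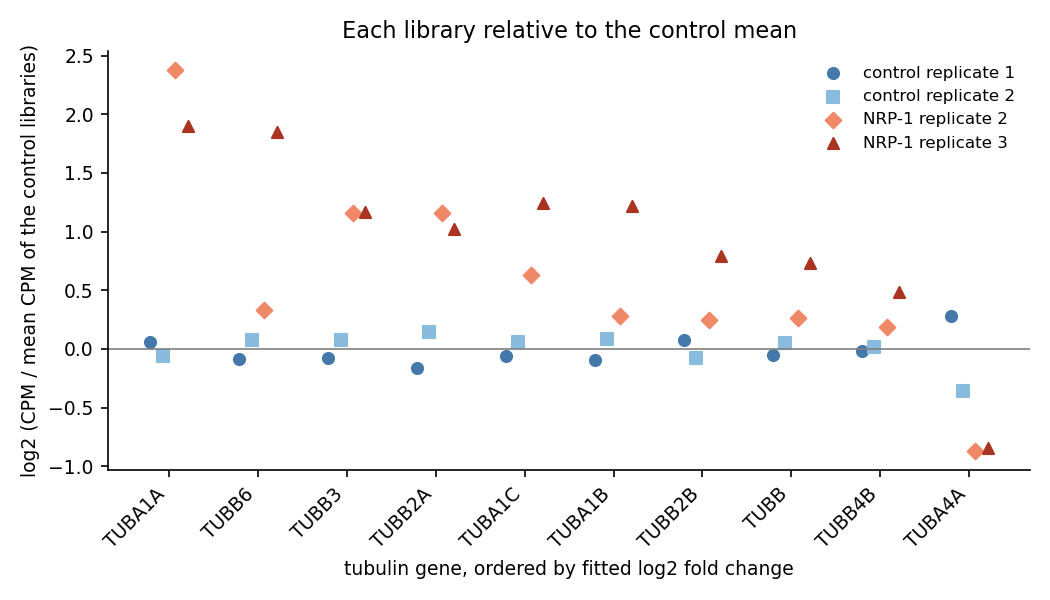
Log2 of the CPM of each library over the mean CPM of the 2 control libraries, for each tubulin gene ordered by fitted log2 fold change, with 1 point a library. TUBA1A has the highest NRP-1 points (2.38 and 1.90), and TUBA4A is the only gene whose NRP-1 points are below 0 (-0.87 and -0.85).

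The 2 NRP-1 libraries differed for most of the 10 genes. In replicate 3 over replicate 2, the CPM ratio was 2.85 for TUBB6, 1.91 for TUBA1B, 1.52 for TUBA1C, 1.46 for TUBB2B, 1.38 for TUBB and 1.23 for TUBB4B. It was near 1 for TUBA4A and TUBB3, 0.912 for TUBB2A and 0.716 for TUBA1A. All but TUBA4A lay above both controls in both NRP-1 libraries, and the size of the difference depended on the library for the genes with ratios well above 1. The dividing-cell markers, at 982 and 2283 CPM in the same libraries, differed in the direction of those genes, and their part in the tubulin values was not tested.

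**Figure D3:**
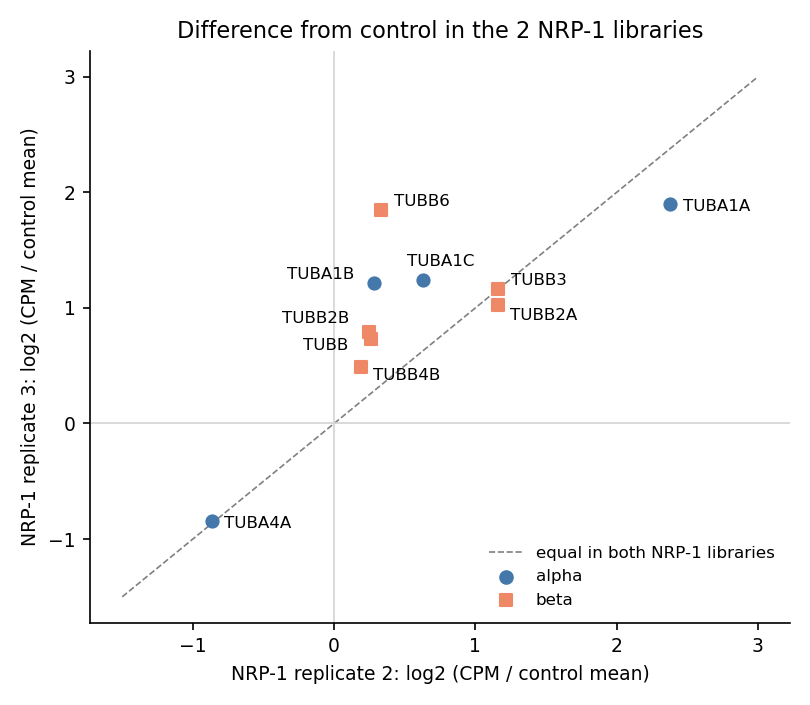
Log2 of CPM over the control mean in NRP-1 replicate 2 (x axis) against NRP-1 replicate 3 (y axis), 1 point a gene, with a dashed line where both are equal. TUBB3 (1.16 and 1.16) and TUBA4A (-0.87 and -0.85) lie on the line, TUBA1B (0.28 and 1.22) and TUBB6 (0.33 and 1.85) far above it, and TUBA1A (2.38 and 1.90) below it.

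As families, both subunits were higher in NRP-1 cells. The 4 alpha genes summed to 9539 and 10757 reads in the controls and to 13820 and 24563 in the NRP-1 libraries (log2 fold change 0.86 ± 0.27). The 6 beta genes summed to 11679 and 12745 against 16783 and 21613 (0.59 ± 0.17). In CPM over the control mean, the alpha sum was 0.39 higher on the log2 scale in NRP-1 replicate 2 and 1.22 in replicate 3, and the beta sum 0.40 and 0.76. The 10 genes took 0.257% and 0.283% of all reads in the controls, 0.365% in NRP-1 replicate 2 and 0.547% in NRP-1 replicate 3. The ratio of summed alpha to summed beta FPKM was 1.07 and 1.10 in the controls and 1.06 in NRP-1 replicate 2, but 1.48 in replicate 3.

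Within the beta family, the mean share differed most for TUBB3, in percentage points. TUBB3 supplied 12.3% and 12.7% of beta tubulin FPKM in the controls and 20.7% and 16.5% in the NRP-1 libraries. TUBB supplied 68.0 ± 0.0115% in control cells and 63.3 ± 4.10% in NRP-1 cells, and TUBB4B 16.2 ± 0.621% and 13.4 ± 0.258%. The beta family was still mainly TUBB in all 4 libraries. TUBB2A supplied 3.05 ± 0.310% and 4.35 ± 0.986%.

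Among alpha tubulins TUBA1B supplied 73.3 ± 0.952% in control cells and 70.8 ± 3.89% in NRP-1 cells, and TUBA1C 24.8 ± 0.416% and 27.3 ± 2.86%. TUBA1A supplied 0.520% and 0.470% in the controls and 2.08% and 0.843% in the NRP-1 libraries. TUBA4A supplied 1.32 ± 0.501% and 0.427 ± 0.164%. TUBA1A, despite the largest fold difference of the 10 genes, therefore stayed a minor isotype.

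**Figure D4:**
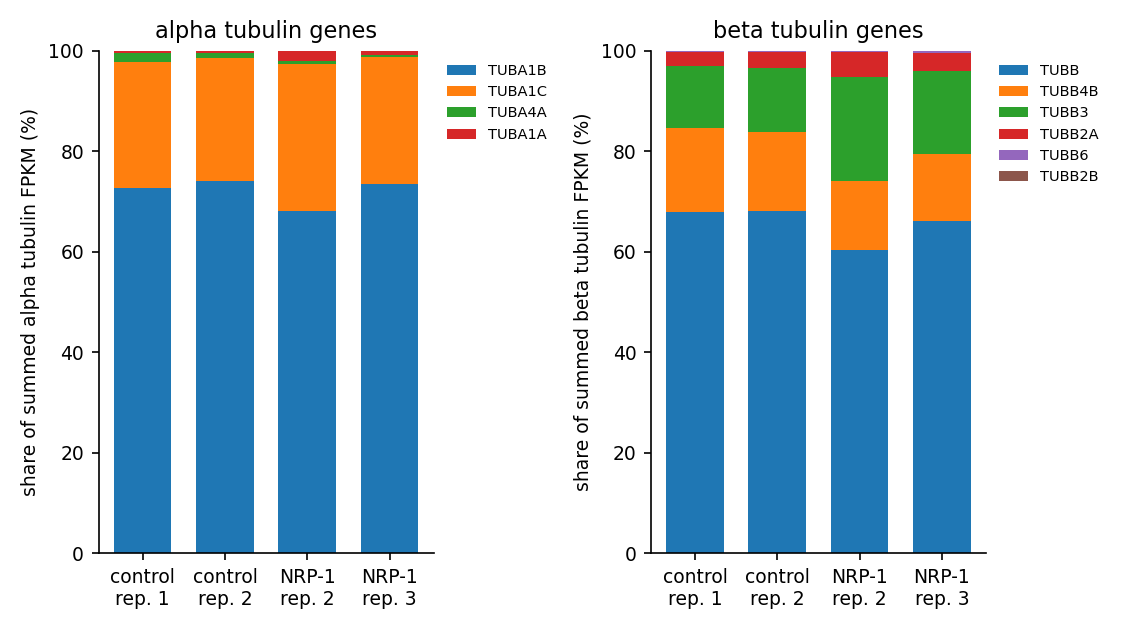
Share of the summed FPKM of the alpha genes (left) and of the beta genes (right) taken by each isotype, in percent, with 1 stacked bar for each of the 4 libraries. TUBA1B and TUBB are the largest segments in every bar, and the TUBB3 segment goes from 12.3% and 12.7% in the controls to 20.7% and 16.5% in the NRP-1 libraries.

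Genes that fold, modify, bind or move along microtubules were counted from 8 lists. Of the 159 distinct genes tested, 2 passed an adjusted p of 0.05 by edgeR's quasi-likelihood test. This is close to the share of 1.09% over all genes tested, so the count is no result about microtubule genes. CLIP2, a linker protein at microtubule plus ends, fell from 191 and 150 reads to 50 and 60 (log2 fold change -1.69 ± 0.24, adjusted p = 0.0473). DYNLL1, a light chain of the dynein motor, rose from 291 and 312 reads to 731 and 939 (1.41 ± 0.16, adjusted p = 0.0435). Neither was called without either control library.

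None of the 24 genes tested for tubulin folding passed, among them the CCT chaperonin subunits CCT6A (0.55 ± 0.19) and CCT3 (0.22 ± 0.21). In the list of tubulin mRNA autoregulation, to which TTC5 belongs, 0 of 13 passed, with CNOT1, the scaffold of the CCR4-NOT deadenylase, at 0.10 ± 0.12 and TNKS1BP1 at 0.01 ± 0.12. The count was 0 of 18 in the list of tubulin modification, which holds the deacetylase HDAC6 (-0.11 ± 0.12) and TTLL12 (0.20 ± 0.26). For nucleation it was 0 of 20, with the centrosomal CDK5RAP2 at 0.48 ± 0.26 and MZT2B at 0.08 ± 0.19. With 1.09% of all genes passing, 0 is the likely count for lists this short, here and below. Nothing is therefore read from these counts. These lists were centred close to all genes tested, with medians of 0.08, 0.10, 0.04 and 0.16 on the log2 scale. In NRP-1 replicates 2 and 3 the medians were -0.02 and 0.21 for folding and 0.08 and 0.16 for autoregulation. For modification they were -0.11 and 0.13, and for nucleation -0.10 and 0.37.

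In the list of binding and stabilizing proteins CLIP2 was the 1 called of 30, CKAP5, a microtubule polymerase, was at 0.58 ± 0.17, and MAP4, which coats microtubules outside neurons, was at -0.17 ± 0.15. GAS2L3 had the largest log2 fold change of that list, 2.26 at a mean of 6.39 CPM, and was not called. The study also listed GAS2L3 as upregulated on these same libraries. Of the 30 genes, 15 had a log2 fold change above 0. In the list of destabilizing and severing proteins 0 of 13 passed, with STMN1, which sequesters tubulin dimers, at 0.44 ± 0.19 and the depolymerizing kinesin KIF18B at 0.85 ± 0.27. The median of that list was 0.44, but 0.17 in NRP-1 replicate 2 and 0.66 in replicate 3, the library with the higher dividing-cell markers, whose part in it was not tested. DYNLL1 was the 1 called of 34 transport motors, whose median was 0.26 (0.34 and 0.17 in NRP-1 replicates 2 and 3). In both NRP-1 libraries 23 motors lay above both controls and 4 below both, where 27.9% and 28.3% of all genes did. Such counts were 13 and 7 of 30 for binding and stabilizing and 7 and 1 of 13 for destabilizing and severing. For folding they were 7 and 2 of 24, for autoregulation 6 and 1 of 13, and for modification 4 and 6 of 18. Nucleation had 7 and 2 of 20, and other tubulins 2 and 1 of 7. The dynein heavy chain DYNC1H1 was at 0.46 ± 0.12 and the kinesin KIF1A at -0.01 ± 0.12. None of 7 other tubulin genes tested passed, including the centrosomal TUBG1 (0.33 ± 0.34) and TUBD1 (0.49 ± 0.27).

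**Figure D5:**
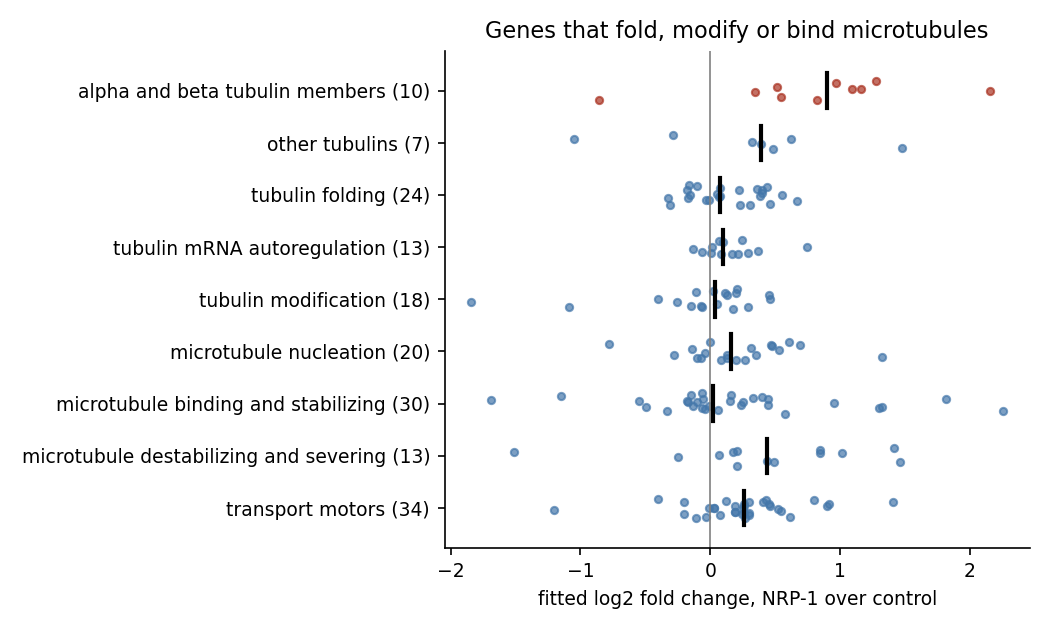
Fitted log2 fold change, NRP-1 over control, of each tested gene in the tubulin family and in the 8 microtubule lists, 1 point a gene, with the number of genes in brackets. The list medians lie between 0.02 and 0.44. The median of the 10 tubulins is 0.90, but they were chosen with this contrast known, so the difference is no result. TUBA1A at 2.16 is the highest tubulin.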

How the data were processed

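Expected counts per gene, estimated with RSEM and not normalized, and FPKM values, normalized for length and mapped reads, were deposited by the authors for each library, per the labels from clean reads. The submitters' processing notes name bcl2fastq 2.16, Bowtie2 2.2.5, HISAT2 2.0.1, GRCh38 and hg19 without roles. A deposited table of the authors' own comparison (group means, log2 ratios and a probability) was not used. Of the gene IDs 99.4% matched a symbol. A gene not listed for a library was taken as 0.

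Expected counts (32.8% of those above 0 not whole, at a tolerance of 1e-09) were rounded to whole reads. The test was edgeR's (version 4.0.16, R 4.3.3), with filterByExpr, TMM (factors 0.986 to 1.01), glmQLFit and glmQLFTest on group alone and Benjamini-Hochberg adjustment. CPM used TMM-scaled totals. With 2 against 2 libraries an exact permutation test cannot go below p = 0.33. The tests were checked on simulated data. A standard error was the size of the log2 fold change over the square root of F. DESeq2 1.42.0 and limma 3.58.1 (mean FPKM from 0.5 up) were alternatives. The members, markers and lists were chosen with earlier results of these data known. Named were the 10 genes, NRP1, list genes called and, where a list had fewer than 2, its 2 genes with the highest mean CPM, and the 5 genes nearest to TUBA1A. MC1R, AC092143.1, TTC5, GAS2L3 and single markers were named outside this rule, after their values were seen. Sequences came from GENCODE 29 on GRCh38. The coding ends of TUBA1A, TUBA1B and TUBA1C are not reported here. Protein sequences were not used here.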

Additional observations from a re-analysis of the deposited data

How the results depend on the processing

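All 95 alternative fold changes of the tubulin genes kept their sign. For every gene both NRP-1 libraries lay on the same side of both controls, so leaving out a library could not change the sign. Of the 95, 14 moved by over 1 SE, nearly all when a library was left out. The others came from giving a gene the sum of its close copies, from 2.16 to 0.87 for TUBA1A and from 0.54 to 1.07 for TUBB2B. Counts of calls depended strongly on the method. Against 156 genes in all, 2 list genes and 3 tubulin genes by edgeR, DESeq2 called 953, 15 and 5, adding TUBA1B and TUBA1C. edgeR without the filter on low counts called 0, 0 and 0, with 3297 genes at an unadjusted p under 0.05. limma called 7, 0 and 0 on log2(FPKM + 1) and 3, 0 and 0 on log2(FPKM + 0.1), with 3076 and 3065 at an unadjusted p under 0.05. An adjusted p of 0.001 with a log2 fold change of 2 left 0 genes by edgeR, with 3268 at an unadjusted p under 0.05.

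With each library left out in turn, edgeR's counts ran from 0 to 5414 genes, from 0 to 68 list genes and from 0 to 9 tubulin genes. The zeros came without control replicate 1 or 2 (782 and 1181 genes at an unadjusted p under 0.05), and the high counts without NRP-1 replicate 2 or 3 (5414 and 4159 genes), where the spread came from the control libraries alone and the lone library was assumed to vary like them. Omitting TMM left 154, 2 and 3. No paired analysis was made because the labels do not pair any control library with an NRP-1 library. The groups share replicate number 2, which is not said to mark a pair. Depth limits TUBB2B and TUBB6, which had at most 21.3 reads in all but 1 library.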

Other observations

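Genes near the tubulin clusters were compared by their place in GENCODE 29. Among the 5 tested protein-coding genes on each side of the TUBA1A, TUBA1B and TUBA1C cluster, 10 in all, fitted log2 fold changes ran from -1.10 to 1.26 with a median of 0.07, and edgeR called 0 of them. Around TUBB2A and TUBB2B the 10 neighbours ran from -1.20 to 0.61 with a median of 0.09, and 0 were called. Over all genes tested 1.09% were called, so 0 is the likely count for so few genes. TUBA1B, TUBA1C and TUBB2B within the clusters were not called either, so these counts do not separate the neighbours from the clusters.

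Over the 4 libraries, the genes nearest to TUBA1A in centred log2 CPM (Euclidean distance, 11522 genes compared) were BPIFB2 (42 and 43 reads in the controls, 199 and 140 in the NRP-1 libraries), HMGCS1 (1090 and 1301 against 5802 and 4523), the antisense RNA DSCAM-AS1 (30 and 29 against 161 and 86), COL5A2 (34 and 47 against 229 and 157) and TP53I3 (30 and 38 against 142 and 126). HMGCS1 encodes an enzyme of cholesterol synthesis and COL5A2 a fibrillar collagen chain. The distances were 0.243 for BPIFB2, 0.279 for HMGCS1 and 0.433 for TP53I3. Likeness over 4 libraries is a description only.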
